A study of Homo sapiens with 6 samples.

Results

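Vimentin and the filament proteins of nerve, muscle and glial cells were followed as 10 genes: VIM, DES, GFAP, PRPH, NEFL, NEFM, NEFH, INA, NES and SYNM. They were taken by symbol from the authors' table of 48114 rows, each matched 1 row, and all 10 reached the level required for testing. The 3 BEZ235 libraries came from cells of TC-71, an established line of human Ewing sarcoma, that had received BEZ235, an inhibitor of PI3K and mTOR kinases, for 16 h. The 3 DMSO libraries came from the same line given dimethyl sulfoxide, the solvent of the inhibitor, for the same time. Both groups carry the genotype label WT, the sources used here do not give the dose, and every library is of this single line, so the values describe 1 cell line. The genes were selected on measured values of this same comparison, their levels in BEZ235 against DMSO. Their differences are therefore given as a description, with standard errors (SE) and no p-value.

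Intermediate filaments are rope-like polymers of the cytoskeleton. Each subunit has a central rod of coiled coil, and the short stretch that ends the rod is among the best conserved in the family. Vimentin, desmin, GFAP and peripherin form the type III class: vimentin is the usual filament protein of mesenchymal cells, desmin of muscle, GFAP of astrocytes and peripherin of peripheral neurons. The neurofilament light, medium and heavy chains and internexin form the type IV class and assemble together in axons. Nestin, known from neural progenitors, and synemin, a linker known from muscle, co-assemble with type III proteins. Ewing sarcoma is a tumour with mixed mesenchymal and neural traits, in which vimentin is commonly detected.

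The conserved end of the rod shows the kinship of the genes at the level of their RNA. The 30 coding bases below, read from the GENCODE v29 principal transcripts, encode it. Capitals mark bases that differ from VIM at the same place.
VIM: acctacaggaagctgctggaaggcgaggag
DES: acctacCggaagctgctggaGggAgaggag
PRPH: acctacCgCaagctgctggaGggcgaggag
INA: GcTtacaggaaActgctggaaggcgaggag
NEFH: GcTtacagAaaActCctggaaggTgaAgag
SYNM: acctacCggGCCTtATtggaaggAgaAAGT
The stretch was found in 9 of the 10 genes, with NES unmatched. GFAP is not compared here, and among the others DES, PRPH and INA had 27 of the 30 bases of VIM each. NEFL had 25, NEFH 23 and NEFM 22, and SYNM stood farthest with 18. Over whole transcripts the genes were distinct: of the 10, VIM and DES alone had any 31-base window in common, and they had 2. Some copies elsewhere are close enough to share reads: NEFHP1 had 264 such windows in common with NEFH and NEFMP1 had 44 with NEFM, while the long GFAP transcript had windows in common with 162 other genes. INA and NES had none in common with any other gene.

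The RefSeq table (GRCh38.p14) gave windows before the gene start for VIM, PRPH, INA, NES and SYNM. The INA and NES windows are shown because both genes were higher in BEZ235 and both windows lie before the deposited row and the principal transcript. The VIM, PRPH and SYNM windows are not shown, since the starts of these genes differ between RefSeq and the transcripts or rows used here. Each run is the 250 bases before the start, 5′ to 3′ on the gene's own strand. Capitals mark the GC box GGGCGG, read on both strands.
INA, chr10:103276888-103277137, plus strand: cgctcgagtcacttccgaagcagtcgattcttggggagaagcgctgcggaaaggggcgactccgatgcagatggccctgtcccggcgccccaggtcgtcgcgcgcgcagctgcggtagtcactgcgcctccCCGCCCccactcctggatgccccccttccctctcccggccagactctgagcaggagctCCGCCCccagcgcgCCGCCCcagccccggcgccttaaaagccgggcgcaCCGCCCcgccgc
NES, chr1:156677408-156677657, minus strand: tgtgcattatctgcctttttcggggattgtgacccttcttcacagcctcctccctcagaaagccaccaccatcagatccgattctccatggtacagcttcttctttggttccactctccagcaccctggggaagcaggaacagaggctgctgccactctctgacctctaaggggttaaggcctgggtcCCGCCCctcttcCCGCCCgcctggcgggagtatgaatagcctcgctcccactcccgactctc
The INA window held 4 GC boxes and the NES window 2. The SYNM window also held 4 and the VIM window 1, while the PRPH window held no GC box and 1 TATA box (TATAAA). Of all 35116 windows of this length in the table, 42.6% held a GC box and 10.7% a TATA box. The AP-1 motif TGACTCA, present in 4.2% of windows, and the paired motif GGAAGGAA, present in 3.06%, were in none of the 5 windows. A match describes letters only, and a motif missing here may lie elsewhere.

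Levels are in normalized counts, the authors' read counts divided by a size factor for each library. They rest on 184790722 to 233767211 reads per library, and 1 read was worth 0.835 to 1.16 normalized counts. Differences are log2 fold changes, BEZ235 minus DMSO, from limma on log2(normalized count + 1). Over all 23923 genes tested, 66.3% passed an adjusted p of 0.05 (Benjamini-Hochberg), with 33.1% higher in BEZ235 and 33.2% lower. Mitochondrial transcripts took 0.507% to 0.706% of all normalized counts with BEZ235 and 2.82% to 3.55% with DMSO, and the part of this in the values below was not tested. Bulk RNA cannot tell fewer cells of a type from less RNA per cell.

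Of the 10 filament genes, 6 were higher in BEZ235 and 2 lower by this test, beside the 66.3% called over all genes. The choice of genes used this comparison, so nothing is read from the count. VIM, INA, GFAP, PRPH, NES and NEFH were higher, NEFM and NEFL were lower, and DES and SYNM did not pass. The BEZ235 and DMSO libraries did not overlap in 8 of the 10, against 70.9% of all genes tested. The median log2 fold change was 0.61 over the 10 genes and 0.00 over all genes tested.

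Vimentin had the largest values and the largest fold change of the 10. VIM (row GSHG0003908, chr10:17228241-17237593, hg38) had 918745, 979610 and 831547 normalized counts in the BEZ235 libraries, against 230824, 175170 and 226293 in the DMSO libraries. All BEZ235 libraries lay far above all DMSO libraries. The means were 909967 ± 74421 in BEZ235 and 210762 ± 30907 in DMSO (SD, n = 3 each), a ratio of 4.32 and a log2 fold change of 2.12 ± 0.11 (SE). By mean normalized count the VIM row ranked 20 of all rows in BEZ235 and 108 in DMSO. Of all genes tested, 820 (3.43%) had a higher log2 fold change.

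VIM made up 0.426%, 0.453% and 0.414% of all normalized counts in the BEZ235 libraries, against 0.112%, 0.0918% and 0.116% in the DMSO libraries. Within the 10 filament genes it made up 89.3%, 89.6% and 89.3% of the normalized counts in BEZ235, and 74.3%, 68.4% and 72.9% in DMSO. The filament RNA of these cells was thus mostly vimentin in every library, and more so in the BEZ235 libraries.

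Peripherin, the type III protein of peripheral and sympathetic neurons, was the next most abundant of its class. PRPH (GSHG0008999, chr12:49293702-49298686) had 36463, 38871 and 33259 normalized counts in BEZ235, against 14491, 12221 and 14266 in DMSO. All BEZ235 values were above all DMSO values. The means were 36198 ± 2815 and 13659 ± 1251 in BEZ235 and DMSO (SD, n = 3 each), and the log2 fold change was 1.41 ± 0.0771 (SE).

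The glial and the muscle member were both near the bottom of the range. GFAP (GSHG0019329, chr17:44903046-44915506) had 154, 196 and 142 normalized counts in BEZ235, against 70.2, 55.8 and 50.1 in DMSO. The groups did not overlap, and the log2 fold change was 1.47 ± 0.233 (SE), the second widest standard error among the 10. DES (GSHG0024817, chr2:219418375-219426737) had 51, 111 and 80.6 normalized counts in BEZ235, against 62.6, 63 and 56.8 in DMSO. Its groups overlapped, with the lowest and the highest value both in BEZ235. The log2 fold change was 0.34 ± 0.307 (SE), from 44 to 112 reads per library. It was 0.63 without BEZ235 library 1 and 0.08 without BEZ235 library 2, and DES passed in neither case.

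The neurofilament genes did not move as a group. Internexin and the heavy chain were higher in BEZ235, and the light and medium chains were lower. INA (GSHG0004445, chr10:103277138-103290349) had 10317, 10063 and 9383 normalized counts in BEZ235, against 3433, 3119 and 3703 in DMSO. All 3 BEZ235 values were well above the DMSO values, and the log2 fold change was 1.54 ± 0.0704 (SE).

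The heavy chain, whose long phosphorylated tail spaces the filaments of axons, differed less. NEFH (GSHG0028524, chr22:29470918-29491390) had 40684, 40704 and 35652 normalized counts in BEZ235, against 27002, 32830 and 30072 in DMSO. The groups did not overlap, but the lowest BEZ235 and the highest DMSO library were close. The means were 39013 ± 2911 in BEZ235 and 29968 ± 2915 in DMSO (SD, n = 3 each), and the log2 fold change was 0.38 ± 0.078 (SE).

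The light and medium chains lie side by side on chromosome 8, with 31.7 kb between their rows. NEFL (GSHG0042213, chr8:24950955-24956614), the light chain on which neurofilament assembly depends, had 16149, 16898 and 15065 normalized counts in BEZ235, against 25411, 25769 and 27119 in DMSO. NEFM (GSHG0041505, chr8:24913760-24919295), the medium chain, had 1771, 1854 and 1616 in BEZ235, against 5258, 4206 and 4968 in DMSO. In both genes every BEZ235 library was below every DMSO library. The log2 fold change was -0.70 ± 0.0565 (SE) for NEFL and -1.46 ± 0.0886 (SE) for NEFM.

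Nestin was higher in BEZ235, and synemin did not pass the test. NES (GSHG0003120, chr1:156668763-156677407) had 2891, 3127 and 2769 normalized counts in BEZ235, against 1938, 1350 and 1688 in DMSO. The groups did not overlap, and the log2 fold change was 0.83 ± 0.115 (SE). SYNM (GSHG0014535, chr15:99098217-99135593) had 1374, 1638 and 1568 in BEZ235, against 2361, 1495 and 2022 in DMSO. DMSO library 2 was below 2 of the 3 BEZ235 libraries, and the log2 fold change was -0.34 ± 0.143 (SE). Without that library the log2 fold change of SYNM was -0.52, and SYNM then passed the test, as it also did under 4 other settings, while without DMSO library 1 it was -0.19 and did not pass.

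The libraries of a group also ordered the genes in a shared way. BEZ235 library 2 was the highest of its group in 9 of the 10 genes, and BEZ235 library 3 was the lowest of its group in 8. DMSO library 2 was the lowest of its group in 6. The sums of all normalized counts had the same order. BEZ235 library 2 had the highest sum of its group (216425787) and BEZ235 library 3 the lowest (200804120). DMSO library 2 had the lowest sum of its group (190882564). The sums weigh the most abundant genes most, so they do not show whether other genes had this order. The share of all genes with this order was not counted. The spread within a group (SD over mean) was 4.87% to 36.9% in BEZ235 and 3.45% to 22.3% in DMSO, with DES the widest in BEZ235 and SYNM the widest in DMSO.

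To set the genes beside each other, levels were divided by the length of the principal GENCODE v29 transcript. The principal transcripts of NEFL, NEFM and GFAP start outside their counted rows. Their values per kb may therefore be too low, which also touches the ranks and shares built on them. On this scale VIM had 487135 ± 39840 normalized counts per kb in BEZ235 and 112828 ± 16545 in DMSO (SD, n = 3 each, as in the next sentences). PRPH had 11155 ± 868 in BEZ235 and 4209 ± 385 in DMSO. NEFH had 10313 ± 769 in BEZ235 and 7922 ± 771 in DMSO. In BEZ235 the ranges of PRPH and NEFH overlapped, with PRPH above NEFH in each of the 3 libraries.

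Further down in BEZ235 came NEFL, INA, NES and NEFM, then SYNM, DES and GFAP. NEFL had 3929 ± 226 normalized counts per kb in BEZ235 and 6394 ± 221 in DMSO, and INA had 3071 ± 149 in BEZ235 and 1058 ± 90.5 in DMSO. NEFM had 435 ± 30 in BEZ235 and 1197 ± 135 in DMSO, and NES had 527 ± 32.7 in BEZ235 and 298 ± 53.1 in DMSO. The order of NEFM against NES and INA thus differed between the groups: NEFM ranked 7 in BEZ235 and 5 in DMSO, though by coding length it ranked 6 in both. In DMSO the ranges of NEFM and INA overlapped, as did those of NES and SYNM, with NEFM above INA and NES above SYNM in each library. SYNM had 206 ± 18.5 in BEZ235 and 265 ± 59.1 in DMSO. DES had 35.9 ± 13.3 in BEZ235 and 27 ± 1.56 in DMSO, and GFAP 25.1 ± 4.36 in BEZ235 and 8.98 ± 1.59 in DMSO, with DES above GFAP in 2 of the 3 BEZ235 libraries. The long principal transcript of GFAP lowers its value per kb.

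The make-up of the type IV RNA differed accordingly. Of the levels per kb of NEFL, NEFM, NEFH and INA added together, INA took 17.3% ± 0.421 in BEZ235 and 6.39% ± 0.621 in DMSO (SD, n = 3 each, as below). NEFL took 22.1% ± 0.506 in BEZ235 and 38.6% ± 1.3 in DMSO, and NEFM took 2.45% ± 0.0475 in BEZ235 and 7.25% ± 1.08 in DMSO. NEFH took 58.1% ± 0.631 in BEZ235 and 47.7% ± 2.95 in DMSO. The shares of a group add to a fixed total, so they do not move independently. By coding length in place of transcript length, the share of NEFH was 42.7% in BEZ235 and 32.8% in DMSO, and that of NEFL was 33% and 53.7% in BEZ235 and DMSO, so the leading chain in DMSO depends on the length used.

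Ratios between pairs showed the same in each library. NEFL over NEFM per kb was 8.98, 8.98 and 9.18 in BEZ235, against 4.76, 6.03 and 5.38 in DMSO. INA over NEFL was 0.807, 0.752 and 0.787 in BEZ235, against 0.171, 0.153 and 0.173 in DMSO. NEFL over NEFH was 0.368, 0.385 and 0.392 in BEZ235, against 0.872, 0.727 and 0.836 in DMSO. No BEZ235 library reached the range of the DMSO libraries in any of these ratios.

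**Figure D1:**
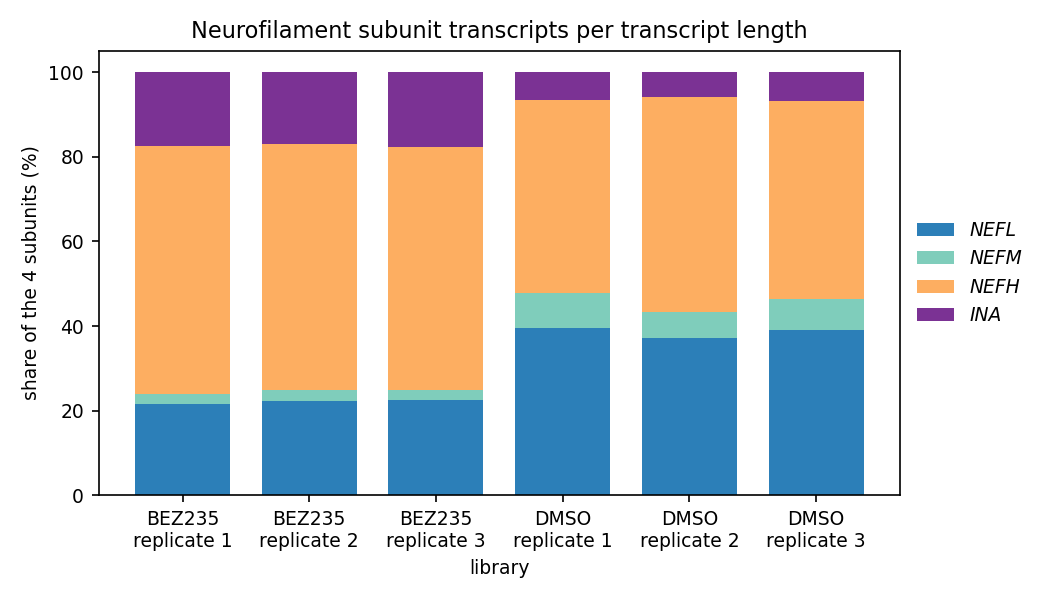
Share of each type IV chain, in percent of the summed normalized counts per kb of transcript of NEFL, NEFM, NEFH and INA, for each library, with BEZ235 left of DMSO. INA takes 16.9% to 17.7% in BEZ235 and 5.68% to 6.75% in DMSO, and NEFL takes 21.6% to 22.5% in BEZ235 and 37.1% to 39.6% in DMSO.

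Other rows of the table lie over the filament genes, and the sources used here do not say whether counting used strand, and shared reads cannot be separated. Of 10 such rows tested, 3 were higher in BEZ235 and 4 lower, beside 33.1% higher and 33.2% lower of all genes tested. A p-value of such a row may rest on reads of the filament gene, so it is no separate support. The row of VIM-AS1, an antisense RNA at the start of VIM, shares 1287 bases with exons of VIM. VIM-AS1 averaged 137041 ± 12981 normalized counts in BEZ235 and 32760 ± 4344 in DMSO (SD, n = 3 each), with a log2 fold change of 2.07. It stood at 14.8% to 15.2% of VIM with BEZ235 and 15.3% to 15.9% with DMSO, a nearly fixed ratio.

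TROAP-AS1 covers the whole PRPH row and stood at 50.5% to 52.3% of PRPH in BEZ235 and 54.1% to 54.4% in DMSO. Its log2 fold change was 1.33. The RHEBL1 row also covers PRPH but spans 279876 bases and 11 rows. It averaged 584 ± 54.3 normalized counts in BEZ235 and 2777 ± 176 in DMSO (SD, n = 3 each), opposite in direction to PRPH. At GFAP, the row CCDC103 // FAM187A shares 2345 bases with it and was at 418% to 554% of the level of GFAP in BEZ235 and 265% to 485% in DMSO. Its log2 fold change was 1.87 (limma adjusted p = 8.54e-07), so a row several times as high as GFAP moved the same way.

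An unnamed row at NEFL, GSHG0041506, followed NEFL closely, at 7.35% to 7.74% of it in BEZ235 and 7.61% to 7.76% in DMSO. An unnamed row at NEFM, GSHG0042212, did not keep a fixed ratio: it stood at 53.3% to 55.1% of NEFM in BEZ235 and 30.9% to 31.3% in DMSO. GSHG0042212 averaged 947 ± 60.2 normalized counts in BEZ235 and 1492 ± 170 in DMSO (SD, n = 3 each), with a log2 fold change of -0.65 (limma adjusted p = 0.000141). Of 4 unnamed rows within SYNM, GSHG0015806 was called lower with a log2 fold change of -0.37 (limma adjusted p = 0.0439) although its groups overlapped. It lost the call under 8 of 17 other settings. GSHG0015807, GSHG0015808 and GSHG0015809 did not pass the test, though GSHG0015808 (-1.02) and GSHG0015809 (-0.72) did without DMSO library 2. DES, NEFH, INA and NES had no overlapping row that was tested.

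**Figure D2:**
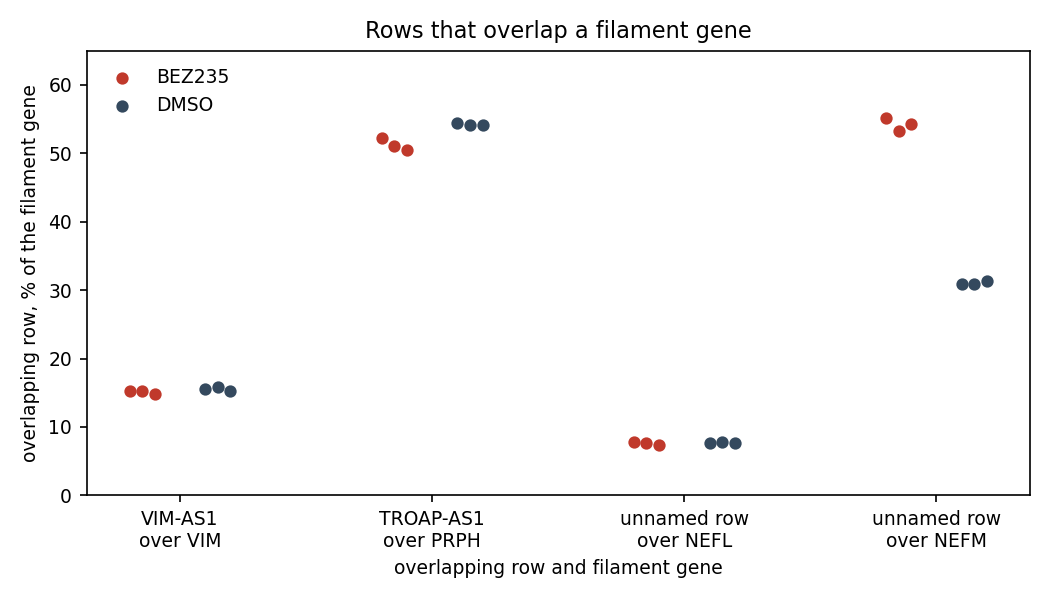
Level of the overlapping rows as a percent of the filament gene they lie over, by library, with BEZ235 left of DMSO. The ratio is nearly the same in both groups at VIM and NEFL, and higher in BEZ235 (53.3% to 55.1%) than in DMSO (30.9% to 31.3%) at NEFM.

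The genes that flank the filament genes on the chromosome were mixed. Of the 18 nearest tested genes with a symbol, 12 passed the limma test, 6 higher and 6 lower in BEZ235, beside 66.3% of all genes, and 5 had the call of the filament gene they flank. Both flanks of VIM were lower in BEZ235 while VIM was higher. TRDMT1, an RNA methyltransferase, had a log2 fold change of -0.73 (limma adjusted p = 3.23e-05), and HACD1, an enzyme of fatty acid elongation, had -0.91 (limma adjusted p = 0.000365). TRDMT1 lies 26.4 kb from VIM and HACD1 351 kb.

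Beside PRPH, TUBA1C, an alpha-tubulin with near-identical relatives, had a log2 fold change of -0.49 (limma adjusted p = 4.63e-05) and TROAP, a spindle protein, had -1.49 (limma adjusted p = 4.69e-09), again opposite to the filament gene. Beside GFAP, EFTUD2, a spliceosome GTPase, was higher by 0.47 (limma adjusted p = 8.94e-06), and KIF18B, a mitotic kinesin, had -2.60 (limma adjusted p = 3.49e-09). The flanks of DES, DNPEP (0.40, limma adjusted p = 7.63e-05) and SPEG (0.59, limma adjusted p = 0.00346), were both higher.

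On 1 side of each of NEFH, INA and NES the neighbour was higher too: THOC5, a part of the mRNA export complex THO, by 1.25 (limma adjusted p = 5.44e-09), PCGF6, a Polycomb protein, by 0.91 (limma adjusted p = 9.93e-07), and CRABP2, which carries retinoic acid, by 1.38 (limma adjusted p = 4.45e-05). On the other side RFPL1, RPEL1 and BCAN did not pass, with -0.13, -0.03 and 0.32. For NEFL and NEFM the neighbours are STC1, a secreted hormone, with -1.37 (limma adjusted p = 0.0005), and DOCK5, which did not pass at 0.04. These neighbours are distant: STC1 lies 1096 kb from NEFL and 1059 kb from NEFM, and DOCK5 lies 228 kb and 265 kb away. LUNAR1 and TTC23 beside SYNM did not pass, with -0.98 and 0.06. Of the neighbours named, TRDMT1, SPEG, EFTUD2, TUBA1C, TROAP, RFPL1, RPEL1, BCAN and TTC23 overlap another tested row and may share reads with it.

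The genes closest to VIM over the 6 libraries, by the root mean square difference of their centred log2 profiles among 15110 genes, were VIM-AS1 (0.0315), WASHC2C (0.0708) and RPUSD4 (0.0709). VIM-AS1 shares sequence with VIM. WASHC2C, a part of the endosomal WASH complex with a near-identical copy, WASHC2A, averaged 23062 ± 1111 normalized counts in BEZ235 and 5157 ± 447 in DMSO (SD, n = 3 each), and RPUSD4, a mitochondrial pseudouridine synthase, averaged 10110 ± 613 in BEZ235 and 2454 ± 218 in DMSO.

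Closest to NEFM were MARCHF2 (0.0388), a ubiquitin ligase, DONSON (0.0403), a replication fork protein, and RRAS (0.0424), a small GTPase. Their log2 fold changes were -1.50, -1.43 and -1.49, with DMSO library 2 the lowest DMSO library in each, as it was for NEFM. Both likenesses follow from the choice by profile over these libraries and are no separate result. The rows of DONSON and MARCHF2 overlap other tested rows.

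Of 55 keratin genes, the epithelial filament proteins, 54 were in the table, 25 of these were at 0 in every library, and 9 were tested. Of the 9, 3 were higher in BEZ235 and 4 lower, beside 33.1% higher and 33.2% lower of all genes tested, and the list median was 0.30. KRT8 averaged 638 ± 37.7 normalized counts in BEZ235 and 1263 ± 46.8 in DMSO (SD, n = 3 each), with a log2 fold change of -0.99 and a limma adjusted p of 1.66e-06. KRT10 had a log2 fold change of -1.22 (limma adjusted p = 1.09e-06), and KRT17 had 1.99 (limma adjusted p = 8.29e-06). KRT8 overlaps KRT18, and KRT10 overlaps KRT25, whose row was lower by the test (-0.86, limma adjusted p = 0.0169). KRT25 lost that call without BEZ235 library 3 (adjusted p = 0.05) and without DMSO library 3 (adjusted p = 0.0591).

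The 3 nuclear lamins were lower in BEZ235. Of 8 lamins and remaining filament genes, 7 were tested, 5 were lower, 1 was higher and 1 did not pass, beside 33.1% higher and 33.2% lower of all genes tested, and the list median was -0.31. LMNA, which encodes lamins A and C, averaged 13293 ± 742 normalized counts in BEZ235 and 34202 ± 1291 in DMSO (SD, n = 3 each), with a log2 fold change of -1.36 (limma adjusted p = 6.68e-09). LMNB1 had -1.05 (limma adjusted p = 1.43e-07) and LMNB2 -0.31 (limma adjusted p = 0.000819). BFSP1, the lens filament protein filensin, was higher by 1.09 (limma adjusted p = 0.000557).

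Plakins and other linkers tie filaments to junctions, the nucleus and other polymers. Of 22 such genes, 18 were tested, 9 were higher and 3 lower, beside 33.1% higher and 33.2% lower of all genes tested. The list median was 0.35, against 0.00 over all genes. PKP1, a desmosomal plaque protein, averaged 57239 ± 2762 normalized counts in BEZ235 and 31235 ± 889 in DMSO (SD, n = 3 each), a log2 fold change of 0.87 (limma adjusted p = 1.27e-07). ITGB4, the hemidesmosome integrin, had 1.24 (limma adjusted p = 5.01e-07), and MACF1, a linker of actin and microtubules, had 0.87 (limma adjusted p = 1.24e-05). SYNE3, the nesprin that binds plectin at the nuclear envelope, had -2.39 (limma adjusted p = 2.63e-09).

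Kinases and phosphatases that act on filament proteins were all tested, 24 of 24, with 7 higher and 14 lower, beside 33.1% higher and 33.2% lower of all genes tested. The list median was -0.32, against 0.00 over all genes. CDK1, which phosphorylates vimentin in mitosis, averaged 2332 ± 79.3 normalized counts in BEZ235 and 19062 ± 101 in DMSO (SD, n = 3 each), with a log2 fold change of -3.03 (limma adjusted p = 3.67e-11). AURKB, which acts on vimentin at the cleavage furrow, had -2.06 (limma adjusted p = 5.31e-09) and PRKCA had -1.40 (limma adjusted p = 7.35e-09). CDK5, a neuronal kinase of neurofilament tails, was higher by 0.81 (limma adjusted p = 7.43e-06).

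Of 17 genes of filament turnover and chaperones, 15 were tested, 7 were higher and 6 lower, beside 33.1% higher and 33.2% lower of all genes tested, and the list median was 0.17. The calpain subunit genes CAPN1 (0.77, limma adjusted p = 1.37e-07) and CAPNS1 (0.87, limma adjusted p = 1.91e-07) and the caspase gene CASP6 (0.86, limma adjusted p = 1.32e-06) were higher. UCHL1, a neuronal ubiquitin hydrolase, was lower by the test at -0.95 (limma adjusted p = 4.33e-08).

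Of 33 transcription factors reported at filament genes, 31 were tested, 5 were higher and 18 lower, beside 33.1% higher and 33.2% lower of all genes tested. The list median was -0.47, against 0.00 over all genes. JUN, a subunit of AP-1, averaged 2176 ± 238 normalized counts in BEZ235 and 17804 ± 1331 in DMSO (SD, n = 3 each), with a log2 fold change of -3.04 (limma adjusted p = 4.76e-10). FOSL2, another AP-1 subunit, had -1.93 (limma adjusted p = 4.9e-09) and ISL2, a motor neuron factor, had -2.25 (limma adjusted p = 4.65e-09). SMAD3, a mediator of TGF-beta, was higher by 0.87 (limma adjusted p = 1.06e-06).

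Among axonal partners of the filaments, 5 were higher and 14 lower of 22 tested among 23, beside 33.1% higher and 33.2% lower of all genes tested. The list median was -0.40, against 0.00 over all genes. KIF5C, a kinesin heavy chain of axonal transport, averaged 329 ± 10.7 normalized counts in BEZ235 and 3277 ± 484 in DMSO (SD, n = 3 each), with a log2 fold change of -3.30 (limma adjusted p = 1.48e-09). MAP1B, a microtubule protein of growing axons, had -2.03 (limma adjusted p = 3.25e-09). STMN3, a stathmin, was higher by 1.42 (limma adjusted p = 9.35e-09). Of the list genes named above, LMNA, MACF1, PKP1, ITGB4, CAPN1, CASP6, UCHL1, SMAD3, KIF5C and STMN3 overlap another tested row and may share reads with it. TUBB3, the neuronal beta-tubulin, named after its values were seen, averaged 113112 ± 7548 in BEZ235 and 32754 ± 3551 in DMSO, a log2 fold change of 1.79 (limma adjusted p = 1.31e-08).

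**Figure D3:**
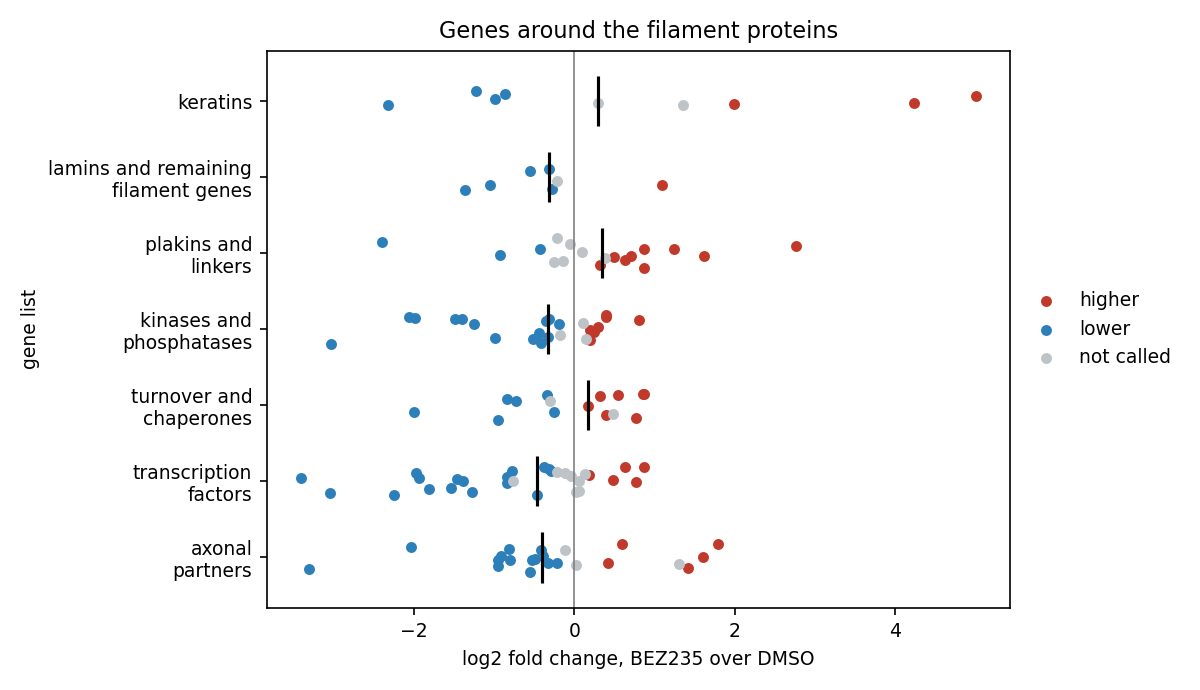
Log2 fold change, BEZ235 minus DMSO, of each tested gene in 7 lists of filament-related genes, each point 1 gene and each bar the list median. The medians run from -0.47 for transcription factors to 0.35 for plakins and linkers, and the highest keratin points are genes near 0 counts in DMSO, whose fold change depends on the added 1.

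Marker genes of the cells that use these filaments were mixed. The numbers of higher and lower genes in all marker lists below stand beside 33.1% higher and 33.2% lower of all genes tested. Each sum weighs its most abundant genes most. All 11 Ewing sarcoma markers were tested, 4 higher, 4 lower and 3 not called, and they summed to 302670 to 309622 normalized counts with BEZ235 and 376487 to 402551 with DMSO. Most of this sum was CD99, with means of 208374 in BEZ235 and 263162 in DMSO. NR0B1, among the 4 lower, averaged 25064 in BEZ235 and 54196 in DMSO. NKX2-2, among the 4 higher, averaged 7561 in BEZ235 and 3154 in DMSO. Of 8 astrocyte markers 6 were tested, 5 of them higher, and all 8 summed to 64000 to 69412 in BEZ235 and 47797 to 51087 in DMSO, while the defining markers AQP4 and SLC1A2 were at 2.72 or less in every library. Skeletal muscle markers had 1 higher of 4 tested among 9, with sums of 12662 to 14888 in BEZ235 and 6993 to 8135 in DMSO, and MYOG, MYF5 and CHRNA1 at 0. Nearly all of the muscle sum was TNNT1, the slow troponin T, with 13383 ± 1156 in BEZ235 and 7177 ± 607 in DMSO (SD, n = 3 each), and MYH3, ACTA1 and CKM did not pass.

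Markers of peripheral and sympathetic neurons had 2 higher and 2 lower of 6 tested among 8, with sums of 2263 to 2432 in BEZ235 and 2225 to 2374 in DMSO. Schwann cell markers had 3 lower of 4 tested among 6, with sums of 1201 to 1298 in BEZ235 and 1611 to 1871 in DMSO, and SOX10 too low to test. Neural progenitor markers had 1 higher and 3 lower of 6, with sums of 15936 to 16746 in BEZ235 and 17909 to 23259 in DMSO. Fibroblast markers had 3 higher and 3 lower of 7 tested among 8, with sums of 40758 to 42549 in BEZ235 and 34494 to 35865 in DMSO. Most of the fibroblast sum was COL3A1, with means of 29032 in BEZ235 and 20658 in DMSO.

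Epithelial markers had 2 higher and 1 lower of 6 tested among 7, with sums of 2779 to 2978 in BEZ235 and 2460 to 2482 in DMSO, and KRT19 at 0. Blood markers had 1 higher and 1 lower of 2 tested among 7, with sums of 1457 to 1545 in BEZ235 and 2204 to 3281 in DMSO, and CD3E and HBB at 0. Nearly all of the blood sum was CD68, with means of 1458 in BEZ235 and 2886 in DMSO. None of 5 endothelial markers was tested, with sums of 12 to 14 in BEZ235 and 2 to 22 in DMSO. The part of these markers in the filament values was not tested.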

How the data were processed

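RNA was sequenced from 3 BEZ235 and 3 DMSO libraries of TC-71, biological replicates per the labels' protocols. The authors deposited 1 table of normalized read counts (unit: signal), with rows named by FASTDB identifiers on hg38. The submitters' processing notes name FastQC, Picard, SAMtools, STAR 2.4.0, DESeq and hg38. The sources used here give neither the counting rule nor its use of strand, and overlapping rows may share reads. Columns named as controls were taken as the DMSO samples of the same number. Of 48114 rows, 21406 carried no gene symbol.

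Values were whole multiples of 1 read within 0.01 normalized counts, so whole reads could be recovered, 184790722 to 233767211 in each library. A count of 0 allows up to 3 reads, or 2.5 to 3.47 normalized counts, by counting error only. A row entered the test when 3 or more of the 6 libraries held at least 10 normalized counts. The test was made with limma 3.58.1 (R 4.3.3) with a mean-variance trend on log2(normalized count + 1), two-sided, with Benjamini-Hochberg adjustment over 23923 rows and a threshold of 0.05. Fold changes on this scale understate the change of low genes. Alternatives were other scalings, pseudocounts of 0.5 and 10, no filter or a filter at 50, no trend, a replicate block, each library left out, and edgeR 4.0.16 and DESeq2 1.42.0 on the recovered reads. The fit was checked on simulated data. An exact permutation test of 3 against 3 cannot give a p below 0.1 and was not used.

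The filament genes and all lists were chosen with earlier results of these data known. Named were all 10 filament genes, up to 3 called genes with the smallest adjusted p in the larger direction of each list and 1 in the other (mean at least 100 in the higher group), the nearest tested genes, overlapping tested rows, and the 3 genes most like VIM and NEFM. Transcript lengths came from GENCODE v29 on the same build (GRCh38), using the principal transcript with the longest coding sequence. Motifs and sequences came from RefSeq and GENCODE. Some items are not reported here.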

Additional observations from a re-analysis of the deposited data

How the results depend on the processing

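Over 17 other settings the number of genes called ran from 14483 to 16102, and 8 or 9 of the 10 filament genes were called, each with its direction kept. Of 1361 values recomputed, which include counts of genes called as well as fold changes, 1332 were classed as unchanged from the main setting. For a fold change this means that direction and side of the threshold were kept. A count of genes called has neither, and each was classed as unchanged even where its value differed from the main setting. Without 1 library in turn, 14483 to 15898 genes were called. The sources used here do not say whether replicate numbers pair the libraries. Same-numbered libraries correlated at -0.0379, 0.0231 and 0.0435 in their deviations from the group means, and differently numbered ones at -0.0973 to 0.0721. With 3 libraries per group these values cannot exclude pairing. With a replicate block 15917 genes were called. SYNM passed the test with log2 fold changes of -0.43 under total-count scaling, -0.34 at a pseudocount of 10, -0.34 with the replicate block, -0.36 in DESeq2 and -0.52 without DMSO library 2, and did not pass at -0.19 without DMSO library 1. The cause was not tested. VIM took a mean of 0.464% of normalized counts in BEZ235 when mitochondrial and ribosomal RNA rows were left out, against 0.414% to 0.453% per library with them, because the total is then smaller. By coding length in place of transcript length, 6 of 10 genes kept their rank in BEZ235 and 2 in DMSO, and by all exons joined, an alternative chosen after seeing the data, 8 did in BEZ235. Of the 70 genes and rows named by the rule, those that changed sign under any of these settings had not passed the test. Total-count scaling, which shifts the median of all genes by -0.10, gave -0.06 for DOCK5, -0.04 for TTC23 and -0.01 for GSHG0015807. Quantile normalization gave 0.03 for RPEL1. Leaving out 1 library took RPEL1 to between -0.15 and 0.07, BCAN to between -0.10 and 0.81, and GSHG0015807 to between -0.27 and 0.40. Without DMSO library 2, GSHG0015808 (-1.02) and GSHG0015809 (-0.72) passed the test, and RFPL1 (-0.22) passed under total-count scaling. DES rests on 44 to 112 reads per library.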

Other observations

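Among the marker genes, a few chosen after their values were seen differed widely between the groups. S100B, a calcium-binding protein of glia, averaged 323 ± 47 normalized counts in BEZ235 and 49.2 ± 21.4 in DMSO (SD, n = 3 each), with a log2 fold change of 2.79 (limma adjusted p = 1.81e-05). DBH, which makes noradrenaline, averaged 200 ± 18.4 in BEZ235 and 46.6 ± 6.26 in DMSO, with a log2 fold change of 2.08 (limma adjusted p = 7.1e-06). PROM1, a progenitor surface protein, averaged 16.7 ± 1.24 in BEZ235 and 487 ± 126 in DMSO, with a log2 fold change of -4.75 (limma adjusted p = 3.24e-08).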
